A study of Mus musculus with 30 samples.

Results

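The comparison set LPS-treated COX-1>COX-2 mice against LPS-treated wild-type mice and covered 190 of the 248 target genes of an nCounter mouse inflammation panel, in 12 of the study's 30 samples. A target gene was a member if its deposited signal was above 20 in at least 6 of those 12 samples. The panel counts labelled RNA molecules directly with gene-specific probes, and its values are given here in the authors' signal units. The tissue was peritoneal macrophages of C57BL/6 mice aged 12 to 16 weeks. The COX-1>COX-2 group held 6 mice of that exchange genotype, injected intraperitoneally with LPS (lipopolysaccharide, the endotoxin of Gram-negative bacteria) at 2 mg/kg and harvested 6 h later. The WT+LPS group held 6 wild-type mice that received the same dose and were harvested at the same time. The remaining 18 samples were COX-2>COX-1 and Reversa mice with LPS and wild-type mice with the vehicle (WT-LPS), 6 each, and were used here for direct contrasts, for levels of single genes and for a fit of all 5 groups together. No COX-1>COX-2 mice received the vehicle, so the response to LPS within that genotype was not measured.

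Cyclooxygenases turn arachidonic acid, released from membranes by phospholipase A2, into prostaglandin H2, from which prostaglandins and thromboxane are made. Ptgs1 encodes cyclooxygenase-1, which most tissues express constitutively and which is the main form of resting peritoneal macrophages. Ptgs2 encodes cyclooxygenase-2, which LPS and cytokines induce in macrophages. In COX-1>COX-2 mice the coding sequence of cyclooxygenase-1 replaces that of cyclooxygenase-2 at the Ptgs2 locus, so that the constitutive enzyme is placed under the control of the inducible gene, while the native Ptgs1 gene remains.

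The promoters of the exchanged pair are shown because the genotype places a Ptgs1 coding sequence behind the Ptgs2 promoter. Both runs are RefSeq sequence of GRCm38.p6 on the plus strand, 250 bases before and 50 bases after an annotated start, read 5′ to 3′. The Ptgs2 promoter lies at chr1:150099781-150100080 and the Ptgs1 promoter at chr2:36230176-36230475. Capitals mark matches to 5 motifs searched on both strands.

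Ptgs2: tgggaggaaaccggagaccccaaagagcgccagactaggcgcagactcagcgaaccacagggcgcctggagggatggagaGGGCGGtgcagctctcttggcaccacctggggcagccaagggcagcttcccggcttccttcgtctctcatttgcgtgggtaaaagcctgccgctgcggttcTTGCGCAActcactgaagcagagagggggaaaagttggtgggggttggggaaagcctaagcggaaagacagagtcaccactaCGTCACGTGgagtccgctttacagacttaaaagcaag

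Ptgs1: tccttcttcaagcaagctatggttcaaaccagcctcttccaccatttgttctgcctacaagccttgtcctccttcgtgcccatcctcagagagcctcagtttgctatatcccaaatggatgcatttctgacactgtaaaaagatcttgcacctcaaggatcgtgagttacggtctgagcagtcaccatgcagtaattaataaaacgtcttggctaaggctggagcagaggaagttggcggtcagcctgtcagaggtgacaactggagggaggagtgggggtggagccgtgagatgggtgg

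The Ptgs2 window held 4 of the 5 motifs, each a single match. The GC box GGGCGG stood at bases 81 to 86 of the printed run and the C/EBP palindrome TTGCGCAA at bases 182 to 189. The core of the cyclic AMP response element, TGACG, read on the minus strand, stood at bases 264 to 268 and overlapped the E-box CACGTG at bases 267 to 272. Of 32544 mouse promoters of this length, 35.9% held the GC box, 0.184% the C/EBP palindrome, 20.9% the cyclic AMP response core and 7.17% the E-box. The TATA box TATAAA (13.6% of promoters) had no match in the Ptgs2 window, and the Ptgs1 window held none of the 5. These are matches of letters, and binding was not measured. The annotated genes span chr1:150100031-150108234 for Ptgs2 and chr2:36216742-36258593 for Ptgs1 on the same build. The Ptgs2 window is at the outer start of its gene. The Ptgs1 window lies inside the annotated span, so the outermost start of Ptgs1 was not searched.

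Ptgs2 and Ptgs1 were read first, because they check the genotype label. Ptgs2 signal lay between 1 and 1.76 in the 6 COX-1>COX-2 mice and between 3719 and 7007 in the 6 WT+LPS mice. All COX-1>COX-2 mice were thus near the floor of the table, which is 1, and the groups did not overlap. The means were 1.25 ± 0.334 in COX-1>COX-2 and 4910 ± 1135 in WT+LPS (SD, n = 6 each). With COX-1>COX-2 values set to no less than 20, Ptgs2 was at least 241-fold lower in COX-1>COX-2. The exact two-sided permutation test of the mean log2 signal gave p = 0.0022, the smallest that 6 against 6 allow (Benjamini-Hochberg p = 0.0043 over the exchanged pair). Ptgs2 was above 20 only in WT+LPS and passed the filter through that group, so this p adds nothing to the check of the label. In WT-LPS mice Ptgs2 was at 7.41 ± 11.6, with 1 of 6 above 20.

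Ptgs1 signal was higher in the exchange mice, with a fitted difference under 2-fold as deposited and an interval that reached beyond it. It was 430, 300.0, 554, 484, 459 and 421 in COX-1>COX-2 mice 57, 58, 59, 60, 55 and 33, and 347, 156, 254, 165, 231 and 274 in WT+LPS mice 51, 52, 53, 54, 55 and 56. COX-1>COX-2 mouse 58 was below WT+LPS mouse 51, and the other 5 COX-1>COX-2 mice were above all WT+LPS mice. The means were 441 ± 84.1 in COX-1>COX-2 and 238 ± 71.3 in WT+LPS (SD, n = 6 each), a log2 difference of 0.92 with a 95% interval of 0.48 to 1.36, or 1.89-fold. The exact permutation p was 0.0043 (adjusted 0.0043 over the exchanged pair). In WT-LPS mice Ptgs1 was at 2652 ± 364 (n = 6), above both LPS groups. No source used here gives the site of the probe, so transcripts of the native Ptgs1 gene and of the exchanged locus cannot be told apart.

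**Figure D1:**
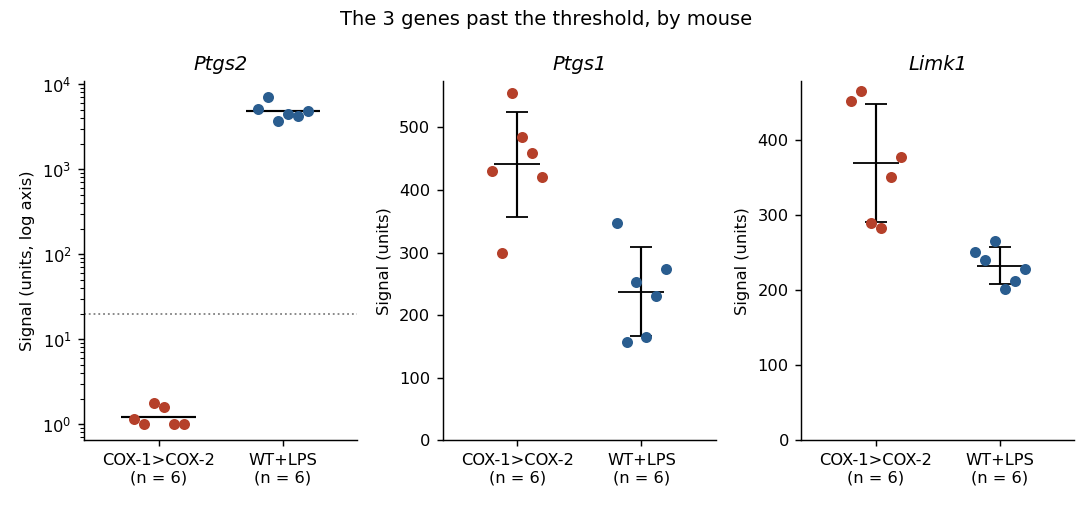
Signal of Ptgs2 (left, log axis, dotted line at 20), Ptgs1 (middle) and Limk1 (right, both linear) in each of 6 COX-1>COX-2 and 6 WT+LPS mice; each point is a mouse. Bars are the geometric mean for Ptgs2 and the mean with SD for the other genes; Ptgs2 was at 1.76 or less in COX-1>COX-2 and at 3719 or more in WT+LPS, and Limk1 was above every WT+LPS mouse in all 6 COX-1>COX-2 mice.

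Summed over target and reference genes, the signal was 471597 to 710080 in COX-1>COX-2 and 620696 to 766533 in WT+LPS samples. The means were 590644 ± 98156 in COX-1>COX-2 and 658513 ± 54478 in WT+LPS. The exact permutation test of the mean log2 total gave p = 0.15. The underlying counts, estimated from the step size of low values, were 409001 to 778623 in COX-1>COX-2 and 485488 to 701251 in WT+LPS. The highest of the 96 negative control values of the 12 samples was 11.6, and 20 was taken as the limit of detection. Each lane had been scaled to the same geometric mean of the reference genes Cltc and Gapdh, which forces their log2 differences, 0.04 and -0.04, to mirror each other. The other 4 reference genes gave exact permutation p-values of 0.16 or more (adjusted over all 6, 0.55 or more), with the widest difference in Gusb, at 815 ± 299 in COX-1>COX-2 and 1016 ± 234 in WT+LPS. Each of 3 runs held 2 lanes of every group. COX-1>COX-2 always filled lanes 7 and 8 and WT+LPS lanes 3 and 4, so lane position and genotype cannot be told apart. Runs 1, 2 and 3 held COX-1>COX-2 mice 57 and 58, 59 and 60, and 55 and 33, beside WT+LPS mice 51 and 52, 53 and 54, and 55 and 56. Mice 57, 58 and 33 stood apart from the other 9 across the panel, as described further on, and had the 3 lowest totals of the 12. Defining macrophage transcripts were present in all samples. C1qa and C1qb, chains of complement C1q, were at 3704 or more and 9633 or more in COX-1>COX-2 and at 5400 or more and 13946 or more in WT+LPS.

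Beyond the exchanged pair only Limk1 passed the adjusted test. Limma on log2(signal + 1), with p-values adjusted by Benjamini-Hochberg over all 190 genes, called 3 genes (1.58% of those tested) at 0.05, with Ptgs1 and Limk1 higher and Ptgs2 lower in COX-1>COX-2. Ptgs2 was above 20 in 0 COX-1>COX-2 and 6 WT+LPS mice, so it was tested only through WT+LPS, had to differ, and adds nothing to the check of the label. With signal above 20 required in all 12 samples, Ptgs2 was not tested and the limma count was 0 of 177 (25 at an unadjusted p under 0.05). The groups did not overlap for 3 genes (1.58%), namely Ptgs2, Limk1 and Csf2. Without adjustment, 9 genes (4.74%) were higher and 20 (10.5%) lower in COX-1>COX-2 at p under 0.05 (limma). Chance gives about 1 in 20 over both directions together, and the excess over this was not tested. The differences were small in most genes: 168 of 190 were under 1.5-fold either way. The fitted difference was beyond 2-fold for Ptgs2, Csf2 and Tlr8, but that of Csf2 rests on values under 20 and was -0.79 on the log2 scale with a pseudocount of 10. For 156 genes the 95% interval lay within a 2-fold change either way. For 34 it did not, and of these only Ptgs2 lay wholly beyond 2-fold.

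The calls of Ptgs1 and Limk1 were close to the threshold, each at an adjusted p of 0.042. With run as a block, Ptgs1 was no longer past it (adjusted p = 0.076) and Limk1 was (adjusted p = 0.031). Fitted together with the other 3 groups, Ptgs1 also lost its call (adjusted p = 0.17) and Limk1 kept it (adjusted p = 0.0092). Each of these fits leaves 2 called genes, Ptgs2 and Limk1. Rescaled to equal totals, to 6 or to 4 reference genes, the calls were 1 gene higher (Ptgs1) and 1 lower (Ptgs2), against 2 higher and 1 lower as deposited. Leaving out single mice gave 1 to 8 calls. The count was 1, Ptgs2, without COX-1>COX-2 mouse 57 or 33 or WT+LPS mouse 53, 54, 55 or 56. Ptgs1 stayed past the threshold without COX-1>COX-2 mouse 58 or 60 or WT+LPS mouse 51 (adjusted p of 0.013 to 0.041) and did not without any of the other 9 (0.053 to 0.12). The count was 8 without COX-1>COX-2 mouse 60, with Csf2, Flt1, Il18rap, Tlr6 and Tlr8 added. By run, the counts were 1 in run 1, 4 in run 2 (Chi3l3, Ptgs1, Ptgs2 and Tgfb3) and 1 in run 3.

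Limk1, a kinase that phosphorylates the actin-severing protein cofilin, was the called gene outside the exchanged pair (chr5:134656039-134689859, GRCm38.p6). Its signal was 452, 465, 289, 283, 350 and 376 in COX-1>COX-2 mice 57, 58, 59, 60, 55 and 33, and 251, 240.2, 265, 201, 211 and 227 in WT+LPS mice 51 to 56. All 6 COX-1>COX-2 mice were above all 6 WT+LPS mice, with mice 59 and 60 nearest to them. The 3 highest values were in mice 58, 57 and 33, which also had the 3 lowest totals and stood apart across the panel, and the part of that pattern in the Limk1 difference was not tested. The log2 difference was 0.64 with a 95% interval of 0.33 to 0.96, or 1.56-fold (limma, adjusted p = 0.042). It was 0.90, 0.31 and 0.72 within runs 1, 2 and 3. Leaving out a mouse gave 0.57 to 0.71, and Limk1 passed without COX-1>COX-2 mouse 59 (adjusted p = 0.034) or 60 (0.029) and in none of the other 10 cases (adjusted p up to 0.13). In WT-LPS mice Limk1 was at 550 ± 59.8, above both LPS groups.

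The substrate of Limk1 was also on the panel. Cfl1, which encodes cofilin, was at 25689 ± 3248 in COX-1>COX-2 and 24681 ± 2415 in WT+LPS, a log2 difference of 0.05 with an interval of -0.19 to 0.30.

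Set directly against the other LPS-treated exchange lines in the fit of all groups, COX-1>COX-2 had 12 genes (6.32%) past the threshold relative to COX-2>COX-1 and 3 genes (1.58%) relative to Reversa. Limk1 averaged 369 ± 78.0 (n = 6) in COX-1>COX-2. It averaged 169.9 ± 24.1 (n = 6) in COX-2>COX-1, 299 ± 64.0 (n = 5, with samples 55 and 56 averaged) in Reversa and 233 ± 24.1 (n = 6) in WT+LPS. Relative to COX-2>COX-1 it was 2.14-fold higher in COX-1>COX-2 (limma, adjusted p = 1.35e-06). Relative to Reversa the log2 difference was 0.30 with an interval of -0.0015 to 0.60, and it did not pass (adjusted p = 0.36). Ptgs1 ranged between 1 and 5.77 in the COX-2>COX-1 mice and averaged 240.4 ± 171 in Reversa, and the difference of COX-1>COX-2 from Reversa, 1.11 on the log2 scale, did not pass (adjusted p = 0.064). Ptgs2 was at 292 ± 142 in Reversa, above all COX-1>COX-2 mice. These contrasts share the COX-1>COX-2 samples with the comparison against WT+LPS.

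Csf2, which encodes the macrophage growth factor GM-CSF, came next after the called genes. It was 6.42, 24.1, 13.01, 24.6, 19.2 and 11.7 in COX-1>COX-2 mice 57, 58, 59, 60, 55 and 33, and 25.3, 37.7, 25.9, 31.9, 61.7 and 31.8 in WT+LPS mice 51 to 56. The groups did not overlap, but 4 of the 6 COX-1>COX-2 values were under 20, so the difference is a bound, at least 1.59-fold lower in COX-1>COX-2. Its adjusted p was 0.12 (limma), and 0.040 without COX-1>COX-2 mouse 60. The related factors Csf1, for macrophages, and Csf3, for neutrophils, had log2 differences of -0.05 and -0.15, neither past the test. Csf1 averaged 746 ± 136 in COX-1>COX-2 and 771 ± 114 in WT+LPS, and Csf3 averaged 3162 ± 856 in COX-1>COX-2 and 3476 ± 834 in WT+LPS.

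**Figure D2:**
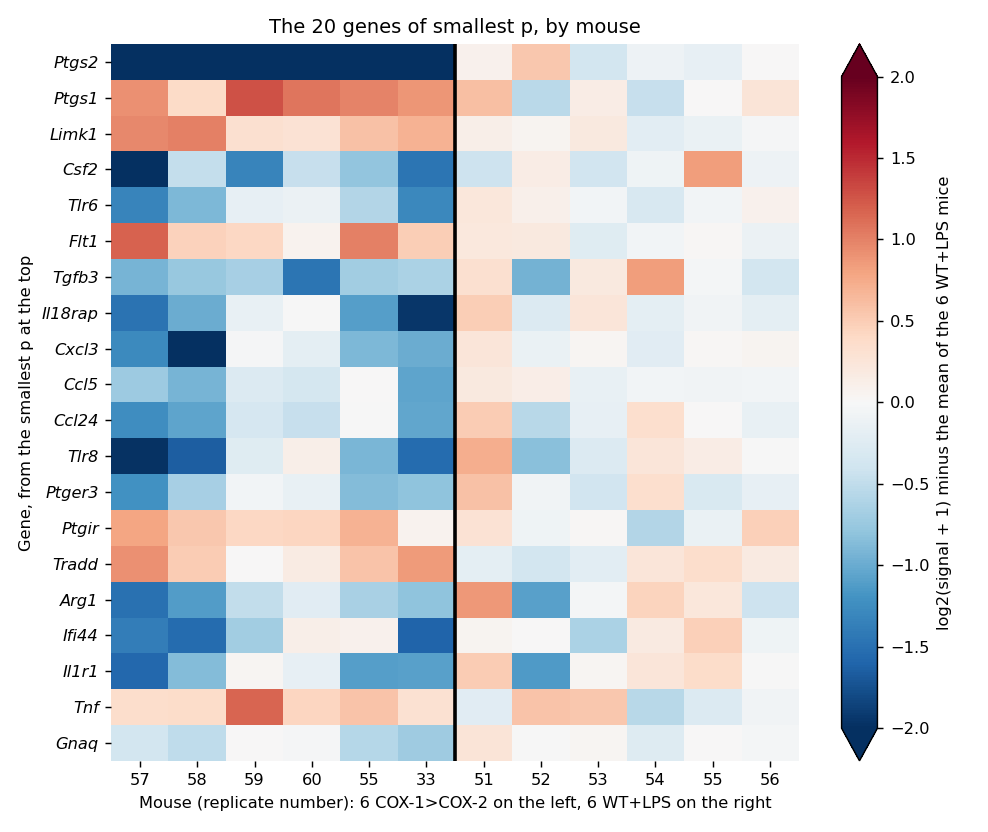
Log2(signal + 1) minus the mean of the 6 WT+LPS mice (colour, limited to 2 either way) for the 20 genes of smallest p, by mouse, with COX-1>COX-2 left of the black line and WT+LPS right of it. Ptgs2 is low in all 6 COX-1>COX-2 mice, while genes such as Tlr8 and Il18rap are lowest in mice 57, 58, 55 and 33 and near WT+LPS in mice 59 and 60.

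The counts of each list below stand beside those of all 190 tested genes, of which 3 (1.58%) were called and 119 were negative. At that share of calls, a short list with none called does not stand out. Among the other genes of the eicosanoid pathway none was called. Pla2g4a, the cytosolic phospholipase A2 that releases arachidonic acid, was at 1051 ± 369 in COX-1>COX-2 and 1221 ± 227 in WT+LPS, a log2 difference of -0.28 (interval -0.77 to 0.22). Of 7 prostanoid receptors on the panel 4 were tested, and 3 (Ptger1, Ptgfr and Tbxa2r) were too low. Ptger3, the prostaglandin E2 receptor EP3, had a lowest, median and highest signal of 29.3, 41.2 and 66.4 in COX-1>COX-2 and 52.7, 64.1 and 105 in WT+LPS (log2 difference -0.63, adjusted p = 0.20). Ptgir, the prostacyclin receptor, was at 159, 213 and 262 in COX-1>COX-2 and 101, 149 and 211 in WT+LPS (0.49, adjusted p = 0.22). Ptger2 and Ptger4, the receptors that raise cyclic AMP, differed by 0.32 and -0.13. The receptors thus lay on both sides of zero, with a median of 0.10, and no receptor separated the groups.

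The 5 tested genes of the lipoxygenase and leukotriene branch, which uses the same arachidonic acid, all had negative differences within a narrow range of -0.33 to -0.25. Over all 190 tested genes 119 were negative. Cysltr1, a receptor of cysteinyl leukotrienes, was at 92.1 ± 28.2 in COX-1>COX-2 and 115 ± 27.3 in WT+LPS. Ltb4r1, the leukotriene B4 receptor, was at 44.3 ± 10.3 in COX-1>COX-2 and 53.6 ± 8.36 in WT+LPS. Alox15, the 12/15-lipoxygenase of resident peritoneal macrophages, was at 3676 ± 1961 in COX-1>COX-2 and 4114 ± 1459 in WT+LPS. None was called, and the adjusted p of Ltb4r1, the lowest of the 5, was 0.36.

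The neutrophil-attracting chemokines, ligands of the receptor Cxcr2, had the most negative median of the lists with 3 or more tested genes, -0.69, and none of the 4 was called. Cxcl3 had a lowest, median and highest signal of 1621, 3663 and 6952 in COX-1>COX-2 and 6012, 7182 and 8279 in WT+LPS. The COX-1>COX-2 mice 57, 58, 55 and 33 were below all WT+LPS mice and mice 59 and 60 were among them. The log2 difference was -0.91 with an interval of -1.53 to -0.30 (limma, adjusted p = 0.13). Cxcl5 was at 14.4, 34.2 and 72.0 in COX-1>COX-2 and 24.8, 70.9 and 86.2 in WT+LPS (-0.86, adjusted p = 0.29). Cxcl1 and Cxcl2, which macrophages release early after LPS, differed by -0.52 and -0.46. The median of the 4 was -1.29, 0.19 and -0.75 within runs 1, 2 and 3, so its sign was not the same in run 2. It was -0.51 to -0.67 under the 4 other scalings and -0.84 to -0.53 with a mouse left out.

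Of 11 monocyte and lymphocyte chemokines 10 had negative differences (119 of 190 over all genes) and none was called, with a median of -0.29. Ccl5, which attracts T cells and monocytes, was at 20150, 29150 and 42177 (lowest, median and highest) in COX-1>COX-2 and 37795, 40446 and 47793 in WT+LPS, a log2 difference of -0.56 (interval -0.93 to -0.18, adjusted p = 0.13). COX-1>COX-2 mouse 55 lay within the range of WT+LPS and the other 5 below it. Ccl24, an eosinophil attractant, was at 1406, 2006 and 3302 in COX-1>COX-2 and 2262, 3185 and 4719 in WT+LPS (-0.69, adjusted p = 0.18). The monocyte attractant Ccl2 was at 14502 ± 4703 in COX-1>COX-2 and 15893 ± 1683 in WT+LPS, and Ccl3, Ccl4 and Ccl7 differed by -0.07, -0.08 and 0.02. The interferon-inducible Cxcl9 and Cxcl10 differed by -0.63 and -0.38, and neither was called. The list's median was -0.62, 0.06 and -0.46 within runs 1, 2 and 3.

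Of 14 tested pro-inflammatory cytokines none was called, and 12 had negative differences (119 of 190 over all genes), with a median of -0.33. Tnf, a central cytokine of the LPS response, was an exception, at 728, 777 and 1328 in COX-1>COX-2 and 403, 534 and 877 in WT+LPS (0.53, interval 0.07 to 0.99, adjusted p = 0.25). Il1b was at 1566, 3739 and 5020 in COX-1>COX-2 and 3950, 4712 and 8287 in WT+LPS (-0.61, adjusted p = 0.27). Il22, a cytokine of lymphoid cells that acts on epithelia, was at 183, 400.0 and 585 in COX-1>COX-2 and 365, 647 and 895 in WT+LPS (-0.72, adjusted p = 0.27). Il6 differed by -0.16, Il18 by -0.20 and Il1a by -0.48. Il12b and Il23a were too low to be tested.

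Receptors and antagonists of interleukins gave a similar count, 6 of 7 negative (119 of 190 over all genes) and none called. Il18rap, the accessory chain of the interleukin-18 receptor, was at 67.5, 126 and 259 in COX-1>COX-2 and 215, 239 and 367 in WT+LPS (-0.95, interval -1.58 to -0.31, adjusted p = 0.13). COX-1>COX-2 mice 59 and 60 lay within the range of WT+LPS and the other 4 below it. Il1r1, the signalling receptor of interleukin-1, was at 33.8, 51.6 and 104 in COX-1>COX-2 and 46.0, 113 and 145 in WT+LPS (-0.79, adjusted p = 0.24). Il1rn, the interleukin-1 receptor antagonist, was at 1075 ± 193 in COX-1>COX-2 and 1290 ± 335 in WT+LPS. Of 11 type 2 and anti-inflammatory cytokines Il10 alone was high enough to be tested, at 243 ± 100.2 in COX-1>COX-2 and 239 ± 109 in WT+LPS (0.07, interval -0.66 to 0.81).

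**Figure D3:**
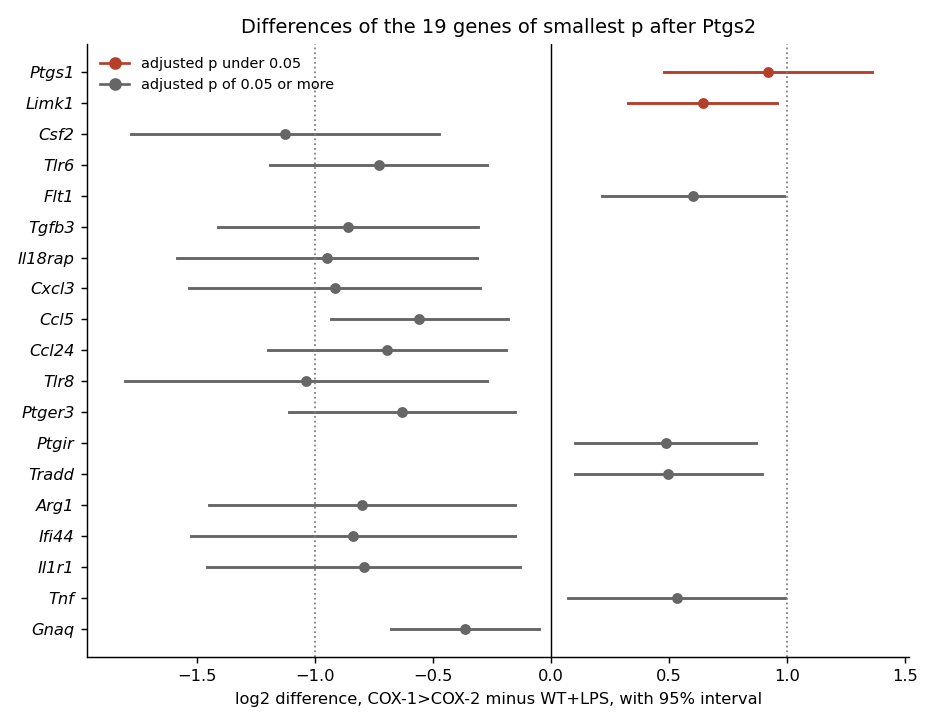
Log2 difference, COX-1>COX-2 minus WT+LPS, with its 95% interval for the 19 genes of smallest p after Ptgs2, whose fitted value of -11.08, set by the floor of the table, is off this scale; dotted lines mark 2-fold either way. Ptgs1 and Limk1 (red) were past the threshold, and no interval shown lay wholly beyond 2-fold.

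Markers of alternative activation, the state of tissue-resident and interleukin-4-treated macrophages, were negative in 8 of 9 tested genes (119 of 190 over all genes). Their median was -0.29 and none was called. The list shares Ccl17, Ccl22 and Ccl24 with the chemokine list and Alox15 with the lipoxygenase list, and Ccl17 is the median of both this and the chemokine list. In wild-type mice Ccl17 and Ccl22 averaged 13.8 and 32.6 in WT-LPS and 107 and 1229 in WT+LPS. Arg1, which breaks down arginine, was at 884, 1503 and 2120 in COX-1>COX-2 and 1166, 2677 and 4525 in WT+LPS (-0.80, adjusted p = 0.23). Retnla, a secreted resistin-like protein, was at 16200.3 ± 8825 in COX-1>COX-2 and 23001 ± 8927 in WT+LPS. Mrc1, the mannose receptor, was at 414 ± 108 in COX-1>COX-2 and 551 ± 204 in WT+LPS. Nos2, the inducible nitric oxide synthase of classical activation, was at 2488, 4627 and 7959 in COX-1>COX-2 and 4740, 6311 and 7901 in WT+LPS (-0.51, interval -1.07 to 0.04, adjusted p = 0.35). Genes of both states thus had negative differences that did not pass.

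Toll-like receptors and their adaptors were split, with 5 of 15 tested genes positive, 10 negative and none called. This was near the 71 positive and 119 negative of all 190 genes. Tlr6, which pairs with Tlr2 to detect diacylated lipopeptides, was at 180.0, 269.9 and 413 in COX-1>COX-2 and 361, 454 and 528 in WT+LPS (-0.73, interval -1.19 to -0.27, adjusted p = 0.13). Its difference was 0.04 within run 2 and negative in the other runs. Tlr8, an endosomal receptor that detects RNA in humans, was at 150, 259 and 643 in COX-1>COX-2 and 331, 623 and 990 in WT+LPS (-1.04, interval -1.80 to -0.27, adjusted p = 0.19). Without COX-1>COX-2 mouse 60 the adjusted p was 0.040 for Tlr6 and 0.045 for Tlr8. Tlr4, the receptor of LPS itself, was at 729.5 ± 139.9 in COX-1>COX-2 and 826 ± 74.5 in WT+LPS, a difference of -0.20 with an interval of -0.48 to 0.09. Its adaptor Myd88 differed by -0.27 and its co-receptor Ly96 by -0.32.

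Interferon-stimulated genes had a median of -0.15 over 11 tested genes, with 3 positive, 8 negative (119 of 190 over all genes) and none called. Ifi44 was at 469.9, 714 and 1545 in COX-1>COX-2 and 918, 1460 and 1996 in WT+LPS (-0.84, adjusted p = 0.23). The antiviral GTPase Mx1 was at 3538 ± 1618 in COX-1>COX-2 and 5004 ± 1648 in WT+LPS (-0.55, adjusted p = 0.35). Oas1a, Ifit3 and Oasl1 differed by 0.01, -0.02 and 0.02.

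For all 17 tested genes of the MAP kinase cascade the interval lay within 2-fold, the median was 0.10 and none was called. Map3k5, a stress-activated kinase, was at 593 ± 102 in COX-1>COX-2 and 875 ± 367 in WT+LPS (-0.48, adjusted p = 0.35). Of 9 NF-kB subunits, regulators and survival genes none was called. Tradd, the adaptor of the TNF receptor, was at 88.9, 128 and 166 in COX-1>COX-2 and 68.1, 88.5 and 113 in WT+LPS (0.50, adjusted p = 0.22), and Bcl2l1, which inhibits apoptosis, was at 589.9 ± 157 in COX-1>COX-2 and 763 ± 77.8 in WT+LPS (-0.41, adjusted p = 0.25). The subunits Nfkb1, Rela and Relb differed by -0.11, 0.06 and -0.24.

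Of 9 AP-1, CREB and MYC factors 7 had positive differences (71 of 190 over all genes) and none was called. Max, the partner of Myc, was at 895 ± 122 in COX-1>COX-2 and 742 ± 58.1 in WT+LPS (0.26, adjusted p = 0.29), and Myc itself differed by 0.04. Mafg, a small MAF protein that pairs with Nfe2l2, was at 188, 399 and 471 in COX-1>COX-2 and 225, 251 and 321 in WT+LPS (0.50, adjusted p = 0.25). COX-1>COX-2 mouse 55 was the lowest of all 12 and the other 5 were above every WT+LPS mouse, and without mouse 55 Mafg passed the adjusted threshold of 0.05. Gnaq, a G protein subunit that couples receptors to phospholipase C, was at 627 ± 132 in COX-1>COX-2 and 796 ± 90.4 in WT+LPS (-0.36, adjusted p = 0.25), with 0.10 within run 2. Rapgef2, an exchange factor of the GTPase Rap1, was at 1214 ± 323 in COX-1>COX-2 and 1587 ± 291 in WT+LPS (-0.41, adjusted p = 0.29). Mef2b, of the MEF2 family, was at 54.9 ± 11.2 in COX-1>COX-2 and 41.8 ± 11.7 in WT+LPS (0.40, adjusted p = 0.32).

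Complement genes lay near the panel as a whole, with 4 of 10 tested positive (71 of 190 over all genes) and none called. C1ra, a protease of the C1 complex, was at 116 ± 48.3 in COX-1>COX-2 and 158 ± 34.3 in WT+LPS (-0.52, adjusted p = 0.35), and C4a was at 17174 ± 3537 in COX-1>COX-2 and 14217 ± 2648 in WT+LPS (0.26, adjusted p = 0.39). The other 10 of the 20 complement genes, mostly of the lectin pathway and the terminal complex, were too low to be tested. Tgfb3 was at 12.0, 20.5 and 21.99 in COX-1>COX-2 and 17.5, 36.8 and 62.8 in WT+LPS (-0.86, interval -1.41 to -0.31, adjusted p = 0.13), near the limit of detection. Without WT+LPS mouse 52 its adjusted p was 0.029. Tgfb1 and the receptor Tgfbr1 differed by 0.09 and 0.13. Of the antigen presentation genes H2-Eb1, Cd40 and Cd86 differed by 0.15, -0.04 and -0.19.

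**Figure D4:**
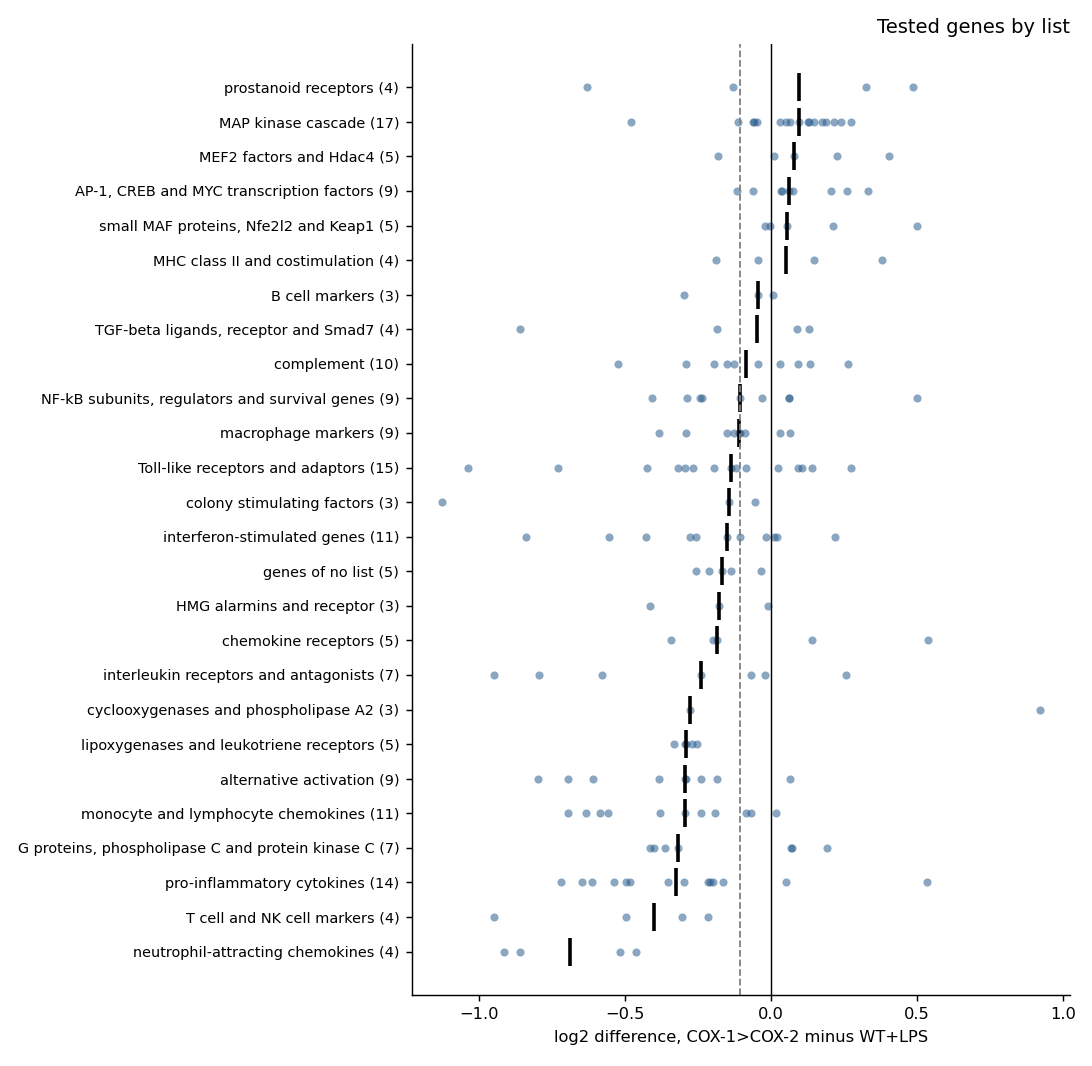
Log2 differences, COX-1>COX-2 minus WT+LPS, of the tested genes of each list drawn, all with 3 or more tested members (points; number tested in brackets) and the list's median (black bar), ordered by median; the dashed line is the median of all 190 genes, -0.11, and Ptgs2 is not drawn. The 4 neutrophil-attracting chemokines lie lowest, with a median of -0.69.

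These signs depend on how the lanes are scaled, since most differences are small. Over all 190 genes, 71 differences were positive and 119 negative with a median of -0.11 as deposited. The median was 0.07 with equal totals, 0.01 with equal medians, and -0.09 and -0.07 with 6 and 4 reference genes. Equal totals and equal medians thus moved all genes up by 0.18 and 0.11. Medians of the neutrophil-attracting chemokines, the other chemokines, the cytokines, the lipoxygenase branch and the alternative activation list stayed negative under all 4 of these, at -0.51 to -0.67, -0.12 to -0.27, -0.15 to -0.31, -0.11 to -0.27 and -0.12 to -0.27. The alternative activation list shares Ccl17, Ccl22, Ccl24 and Alox15 with the chemokine and lipoxygenase lists, so these are not separate results. Medians of other lists also stayed negative under all 4, among them the interleukin receptors and antagonists, at -0.06 to -0.22. The median of the G proteins, phospholipase C and protein kinase C was -0.32 as deposited and -0.14 to -0.30 under the 4 scalings. The medians of the Toll-like receptors (-0.14), the interferon-stimulated genes (-0.15) and the complement genes (-0.09) were 0.04, 0.03 and 0.09 with equal totals, so their sign depended on the scaling. Within runs 1, 2 and 3 the median was -0.55, -0.12 and -0.07 for the cytokines, -0.91, -0.20 and -0.46 for the alternative activation list, and -0.73, 0.18 and -0.24 for the lipoxygenase branch.

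The COX-1>COX-2 mice differed from each other more than the WT+LPS mice did. Over the 188 tested genes other than Ptgs1 and Ptgs2, the median SD of the log2 signal was 0.33 in COX-1>COX-2 and 0.28 in WT+LPS. The SD was larger in COX-1>COX-2 for 131 genes and larger in WT+LPS for 57. Cxcl3 had the highest ratio, with an SD of 0.76 in COX-1>COX-2 and 0.16 in WT+LPS, and Ccl5 had 0.41 in COX-1>COX-2 and 0.13 in WT+LPS. The opposite held for Irf5, a regulator of inflammatory macrophage genes, with 0.076 in COX-1>COX-2 and 0.36 in WT+LPS, and for Oasl1, an interferon-induced gene, with 0.13 in COX-1>COX-2 and 0.48 in WT+LPS. These are descriptions of 6 mice each, and the difference in spread was not tested.

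The leading pattern of this variation set mice 57, 58 and 33 apart. The first component of the 188 genes held 43.0% of the variance among the 12 mice, and these 3 were at 5.49, 4.77 and 7.195. COX-1>COX-2 mice 59, 60 and 55 were at -2.74, -2.16 and -0.64, within the range of the WT+LPS mice, -5.15 to -0.85, or just above it. The genes lowest on it were Tlr8, Il18rap and Cxcl9, and the highest were Cxcr4, Mapk14 and Map3k1. Mouse 33 was below all 6 WT+LPS mice in 80 of 188 genes, mouse 57 in 69, mouse 58 in 64 and mouse 55 in 42, while mice 59 and 60 were below all of them in 21 each. For comparison, each WT+LPS mouse was below the other 5 in 11 to 64 genes, the most in mouse 52. On the upper side, COX-1>COX-2 mice were above all 6 WT+LPS mice in 17 to 36 genes. WT+LPS mice were above the other 5 in 6 to 74 genes, with 74 in mouse 51, 64 in mouse 54 and 23 or fewer in the rest. Total signal was 471597, 541786 and 503124 in mice 33, 57 and 58, against 620696 or more in the other 9. The part of total signal in this pattern was not tested.

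**Figure D5:**
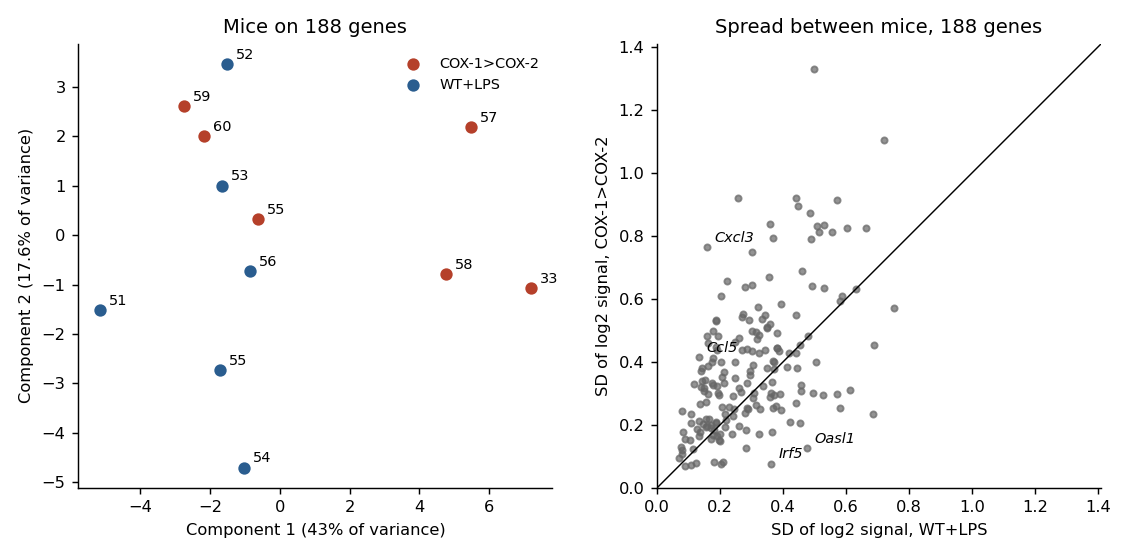
Left, the 12 mice on the first and second principal components of 188 tested genes, centred and not scaled (units of log2 signal, numbers are replicate numbers); right, the SD of log2 signal per gene over 6 COX-1>COX-2 mice against that over 6 WT+LPS mice, with the line of equality. COX-1>COX-2 mice 57, 58 and 33 lie at 4.77 to 7.195 on the first component and the other 9 mice below 0; 131 of 188 genes lie above the line.

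Markers of other cells were set beside these results, because peritoneal cells hold lymphocytes and other types, and in such a sample fewer cells of a type and less RNA per cell cannot be told apart. The summed signal of 9 macrophage markers was 26285 to 60778 in COX-1>COX-2 and 37360 to 67861 in WT+LPS, with the lowest sum in mouse 33. The summed signal of 6 T cell and NK cell markers was 337 to 1551 in COX-1>COX-2 and 710 to 1461 in WT+LPS, and Cd40lg and Il2 were mostly at or under 20. This sum was 337, 501 and 672 in COX-1>COX-2 mice 33, 58 and 57, the 3 that stood apart on the first component, all below every WT+LPS mouse. It was 810.5 or more in COX-1>COX-2 mice 60, 59 and 55, and mouse 55 had the highest sum in either group, 1551. All 4 tested markers of that list, Cd4, Fasl, Ifng and Il18rap, had negative differences (119 of 190 over all genes) and none was called. Ifng was at 556 ± 394 in COX-1>COX-2 and 704 ± 293 in WT+LPS, on average most of the sum. The part of these cells in the values of Il18rap, Il22 and Ifng was not tested, and Il18rap and Ifng are themselves members of the sum. The B cell sum was 3164 to 4833 in COX-1>COX-2 and 3419 to 4774 in WT+LPS. Most of it was 1 gene, Cd40, at 2796 to 3728 in WT+LPS. Cd40 is also among the antigen presentation genes above, so this sum does not measure B cells alone. The neutrophil sum was 68.0 to 117 in COX-1>COX-2 and 71.3 to 121 in WT+LPS, with Cxcr1 mostly at or under 20. The mast cell and eosinophil markers Il4, Il5, Il13 and Ccr3 were mostly at or under 20 in both groups.

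Of 7 mesothelial and stromal markers 5 were mostly at or under 20, and the summed signal was 151 to 273 in COX-1>COX-2 and 126 to 193 in WT+LPS. Flt1, a receptor of vascular endothelial growth factor that monocytes and endothelium also make, was 1 of the 2 tested. It was at 49.8, 66.5 and 109 in COX-1>COX-2 and 39.96, 46.8 and 55.2 in WT+LPS (0.60, interval 0.22 to 0.99, adjusted p = 0.13). COX-1>COX-2 mouse 60 lay within the range of WT+LPS and the other 5 above it, and without mouse 60 the adjusted p was 0.040. Flt1 was under 20 in all WT-LPS mice, at 3.49 ± 1.598. Pdgfa, the other tested marker, was at 90.5 ± 27.3 in COX-1>COX-2 and 69.7 ± 20.3 in WT+LPS (0.36, adjusted p = 0.39).

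The remaining 58 target genes were not tested. Of these 46 were above 20 in none of the 12 samples and 12 in 1 to 5 of them. Ppp1r12b, a myosin phosphatase subunit, was just inside the limit, above 20 in 4 COX-1>COX-2 and 2 WT+LPS mice. Il12b was just outside it, above 20 in 3 COX-1>COX-2 and 2 WT+LPS mice. Il13, a type 2 cytokine, and Ager, a receptor of alarmins, were above 20 in 3 COX-1>COX-2 mice and in 0 WT+LPS mice, with medians of 18.9 and 18.4 in COX-1>COX-2 and 6.69 and 12.9 in WT+LPS.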

How the data were processed

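RNA of peritoneal macrophages from 30 mice was measured on an nCounter inflammation panel; per the labels' protocols it had an integrity number of at least 7.0 and was adjusted to 20 ng/µl. The deposited values are a signal per gene and sample, not counts. The authors' software and steps are not given in the sources used here. Read from the values, a background was removed with a floor of 1, and each lane was scaled to the same geometric mean, 8147.9, of the reference genes Cltc and Gapdh. Of 2 deposited tables, the one of 268 rows was used, the other repeats 266 of them, and 0 columns lacked a sample. Depth was recovered from the steps between low values, within a tolerance of 0.1 of a step, and was not used for tests.

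Here, target genes with signal above 20 in at least 6 of the 12 samples were tested with limma 3.58.1 (lmFit, eBayes) in R 4.3.3 on log2(signal + 1), which understates the change of low genes, with Benjamini-Hochberg adjustment. All tests were two-sided, and intervals are 95%. Log2 differences are COX-1>COX-2 minus WT+LPS. Levels of the exchanged and reference genes and totals were tested by exact permutation of samples (scipy 1.17.1), and totals were not adjusted. Direct contrasts with the other exchange groups came from a fit of all 5 groups, in which Reversa samples 55 and 56 were averaged, since they differed by little more than counting noise (chi-square 1.27 per gene, against 20.8 in the next closest pair within a group). The labels describe separate mice. The fits were tested on simulated data with independent genes, the spread of WT+LPS in every group and changes larger than those of Ptgs1 and Limk1. Recovery of differences as small as those of Ptgs1 and Limk1 was not tested. Gene lists were described by counts and medians with no test.

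Members and lists were chosen with earlier results of these data known. Genes named by rule were Ptgs1, Ptgs2, those past the threshold, the 20 of smallest p and the 2 of smallest p in each list; genes with a mouse far from its group were sought only among these, which added none. The other genes named in each list, such as Il6, Tlr4 or Cfl1, were chosen after their values were seen. Of 254 panel symbols 247 matched the GRCm38.p6 gene table, and panel names are printed. Some genes and 2 gene lists are not reported here. Alternatives changed the scaling, the filter, the pseudocount, the samples fitted, the run as a block or alone, the prior variance, and left out each mouse in turn.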

Additional observations from a re-analysis of the deposited data

Results flagged for a closer look

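In each group of 6 with at least 4 values above 20, the gap of the highest or lowest mouse to its neighbour was set against the group's range on the log2 scale and compared with Dixon's 95% critical value. Of 113 groups of the 58 named genes, 7 passed, where chance gives about 1 in 20. In COX-1>COX-2, Tgfb3 was 12.0 in mouse 60, below the 17.8 to 21.99 of the other 5, and Tnf was 1328 in mouse 59, above the 728 to 881 of the others. In WT+LPS, the low values were Il1r1 at 46.0 in mouse 52 (101 to 145 in the others) and Cd40 at 2796 in mouse 56 (3385 to 3728). The high values were Max at 855 and Atf2, a partner of Jun, at 1333 in mouse 54 (695 to 746 and 1067 to 1144 in the others), and Mafg at 321 in mouse 55 (225 to 256). No explanation of these values was tested.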

How the results depend on the processing

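Ptgs2 stayed past the threshold under every alternative that tested the gene. Its fitted difference of -11.08 (-11.50 to -8.74 under these, -11.15 to -10.97 with a mouse left out) is no measured size, since all COX-1>COX-2 values were under the detection limit and it moves with the floor and pseudocount; the bound is at least 241-fold lower in COX-1>COX-2. The Ptgs1 difference of 0.92 stayed positive under all 25 alternatives. It was beyond 2-fold with equal totals (1.10), with equal medians (1.03) and in run 2 alone (1.34). It lost its call with no filter (0.92, adjusted p = 0.073), with signal above 20 in all 12 samples (0.92, adjusted p = 0.052), with all 5 groups (0.92, adjusted p = 0.17), with run as a block (0.92, adjusted p = 0.076) and in run 1 (0.62) and run 3 (0.80) alone; with a mouse left out it was 0.81 to 1.04. Limk1, at 0.64, lost its call under 8 of 13 such settings (0.31 to 0.90) and 10 of 12 leave-outs. The count of 3 genes was 1 with no filter, 0 with signal above 20 in all 12 samples (limma, 177 genes tested, without Ptgs2; 25 at an unadjusted p under 0.05), 1 in run 1 alone and 1 in run 3 alone, and 1 to 8 with a mouse left out. Elsewhere it was 2 to 4. Tlr6 and Gnaq reversed in run 2 alone, at 0.038 and 0.10. Of 423 values of the 17 other genes of smallest p, 414 kept direction and side, 7 passed the threshold (5 of them without COX-1>COX-2 mouse 60) and 2 reversed. The causes were not tested. No paired analysis was possible because the groups share only 1 replicate number, 55. At 6 mice a group, 34 of 190 intervals reached beyond 2-fold, and 4 of 6 Csf2 values in COX-1>COX-2 were under the detection limit.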
